A study of Homo sapiens with 16 samples.

Results

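MED1 peaks were examined at 9 loci named for target genes of the Wnt pathway, AXIN2, LEF1, ASCL2, ZNRF3, SOX4, SOX9, CCND1, EPHB2 and ETS2. The members are the peaks of 6 deposited lists that overlap a fixed hg19 window around each gene, between 100.0 kb (ASCL2 and SOX9) and 300.0 kb (EPHB2) long and 1.47 Mb in all. This gave 11 of the 3464 listed peaks, which merge into 4 of 1584 regions over all lists. The rule uses these windows and no measure of peak strength.

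MED1 is a subunit of Mediator, the complex that links DNA-bound transcription factors to RNA polymerase II. It was mapped by ChIP-seq in HCT116, a human colorectal carcinoma cell line. Wild-type (WT) cells received DMSO as mock or Nutlin-3a, which blocks MDM2 and so induces p53, for 1 h. An edited line of genotype OsTir1+/-;Med14-AID+/+ carries an auxin-inducible degron (AID) on the Mediator subunit MED14, which auxin and the plant protein OsTIR1 send for degradation. These cells received water as mock or 500 µM auxin (IAA) for 3 h, each alone or followed by Nutlin-3a for 1 h. Whether the edited line is 1 clone is not given in the sources used here, and per the labels the DMSO mock was given to WT cells only. Each WT list comes from 2 MED1 libraries pooled, and each MED14-AID list from 1. No condition therefore has another list to show how much replicates vary, and the differences below were not tested.

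In Wnt signalling, β-catenin that escapes its destruction complex enters the nucleus and binds TCF and LEF factors on DNA, where it recruits coactivators. HCT116 cells carry an activating mutation of the β-catenin gene CTNNB1, so that the pathway is active without added ligand. Some targets feed back on the pathway. AXIN2 is a scaffold of the destruction complex, ZNRF3 is a membrane ubiquitin ligase that removes Wnt receptors, and LEF1 is itself a partner of β-catenin. ASCL2, SOX4, SOX9 and ETS2 are transcription factors, of which ASCL2 and SOX9 are known from the intestinal crypt. EPHB2 is a receptor that positions crypt cells, and CCND1 encodes cyclin D1, which drives the G1 phase of the cell cycle.

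MED1 peaks were listed at 3 of the 9 loci. CCND1 held 9 of the 11 peaks and was the 1 locus with peaks in more than 1 list. AXIN2 and ZNRF3 each had 1 peak in 1 list. LEF1, ASCL2, SOX4, SOX9, EPHB2 and ETS2 had no peak in any of the 6 lists. Neither auxin list had a peak at any of the 9 loci. As a background, each chromosome was divided into stretches of 163.0 kb, the mean window length, from its first to its last listed peak. Chromosome ends beyond these peaks and very short spans were left out. Of 17423 stretches, 4.76% held a peak of any list. In WT cells with DMSO 2 of the 9 windows were occupied, against 3.40% of stretches, and in MED14-AID cells with water 2 were, against 1.21%. In each of the lists with Nutlin-3a and no auxin 1 window was occupied, against 3.56% of stretches in WT cells and 1.40% in the edited line. Under auxin 0 windows were occupied, against 0.258% of stretches without and 0.321% with Nutlin-3a. The stretches include long parts with no genes, whereas each window was drawn around a gene, so nothing particular to the loci is read from these shares.

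**Figure D1:**
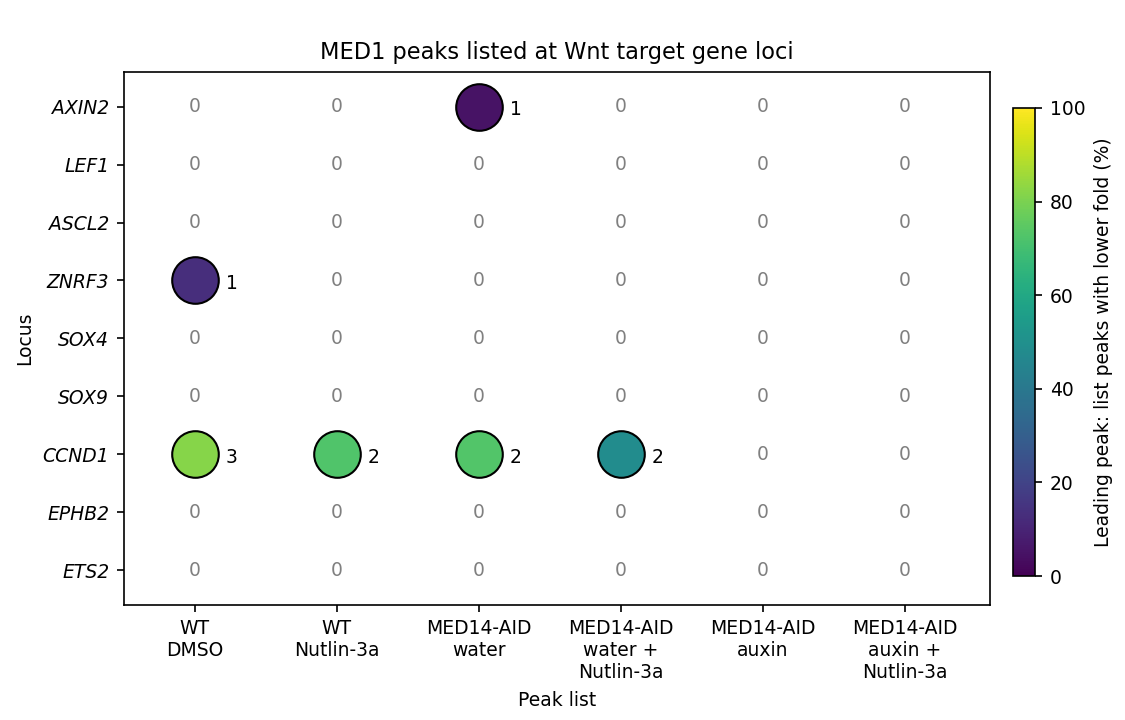
Number of MED1 peaks at each locus (vertical axis) in each peak list (horizontal axis), with grey zeros where none was listed. Colour gives the percentage of peaks of that list with a lower fold than the leading peak of the locus, and CCND1 is the only locus of the 9 with circles in 4 lists.

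The promoter sequences of 4 of the 9 genes (LEF1, SOX4, EPHB2 and ETS2) were at hand, all at loci without a listed peak, and those of LEF1 and SOX4 are shown as 2 transcription factors whose windows held no peak. They are the 250 bases before the annotated start (RefSeq, GRCh38.p14), in lower case throughout because the searched motif is absent, for LEF1 on the minus strand at chr4:108166302-108166551 and for SOX4 on the plus strand at chr6:21593501-21593750.
LEF1: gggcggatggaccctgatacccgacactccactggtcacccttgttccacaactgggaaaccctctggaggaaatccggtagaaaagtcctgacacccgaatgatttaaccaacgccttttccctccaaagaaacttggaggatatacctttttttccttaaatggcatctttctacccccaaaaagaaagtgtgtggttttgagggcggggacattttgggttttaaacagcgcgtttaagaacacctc
SOX4: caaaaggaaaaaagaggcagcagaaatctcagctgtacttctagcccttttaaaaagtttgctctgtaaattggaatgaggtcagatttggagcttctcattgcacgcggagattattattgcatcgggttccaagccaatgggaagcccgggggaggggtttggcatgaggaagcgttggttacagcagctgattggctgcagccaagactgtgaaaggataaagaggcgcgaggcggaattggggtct
The TCF and LEF core CTTTGA, searched on both strands, was in none of the 6 annotated promoters of these 4 genes, and in 11.2% of all 35116 promoters of the table. This says only that these letters are not in this window before the start. The EPHB2 promoters, chr1:22710588-22710837 and chr1:22710589-22710838, are nearly the same stretch. So few promoters cannot be placed above or below the share of the whole table. The peaks themselves are in hg19, for which no genome was used, so no sequence is shown for the CCND1, AXIN2 and ZNRF3 peaks and their distance from the gene's start is not given.

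At the CCND1 locus the peaks of the 4 lists without auxin merged into 2 neighbouring regions, chr11:69451296-69454411 and chr11:69455204-69456606 (hg19), with 792 bp between them and 5311 bp from end to end. Each was listed in both WT conditions and, in the MED14-AID line, in both water conditions. Merging peaks up to 1 kb apart joined the 2 into 1 region, so the split depends on the merging distance. The authors' peak caller gives each peak a fold enrichment over background and a −log10 q, which is larger for a more certain peak. Both serve here to place a peak within its own list and not to compare lists.

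In WT cells with DMSO the first CCND1 region held 2 peaks. The leading one, chr11:69452617-69453467, had a fold of 4.48 and a −log10 q of 18.6, and 81.8% of the 1106 peaks of the list had a lower fold. The other, chr11:69451296-69452337, had a fold of 3.18 and a −log10 q of 7.84, near the list's median fold of 3.19. The second region held 1 peak, chr11:69455357-69456041, with a fold of 3.14 and a −log10 q of 6.86. CCND1 thus had 1 peak in the upper part of the WT DMSO list and 2 near its middle.

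In WT cells with Nutlin-3a the first region was 1 broad peak, chr11:69451445-69454411, with a fold of 2.90 and a −log10 q of 9.15. It was 2967 bp wide, and 3.75% of the peaks of that list were at least as wide, against a median width of 818.0 bp. It overlaps both DMSO peaks of that region, containing chr11:69452617-69453467 whole and chr11:69451296-69452337 in part. The second region, chr11:69455308-69456606, had a fold of 4.19 and a −log10 q of 14.9, above 72.3% of the 1254 folds of the list. Here the second region led and the first lay in the lower part of the list by fold.

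In MED14-AID cells with water the first region, chr11:69452526-69453478, had a fold of 5.51 and a −log10 q of 11.5, and 72.8% of the 463 peaks had a lower fold. The second, chr11:69455204-69455798, had a fold of 3.68 and a −log10 q of 3.76, with 20.7% of folds below it. The second region was thus near the weak end of that list, where the lowest −log10 q was 1.93. After water and then Nutlin-3a the first region, chr11:69452176-69454093, had a fold of 4.20 and a −log10 q of 7.96, close to the list's median fold of 4.25. The second, chr11:69455406-69455971, had a fold of 3.58 and a −log10 q of 4.93, with 25.3% of the 522 folds below it. The first region was the higher by fold in 3 of the 4 lists and the second in WT cells with Nutlin-3a. This order has 1 list per condition behind it and was not tested.

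**Figure D2:**
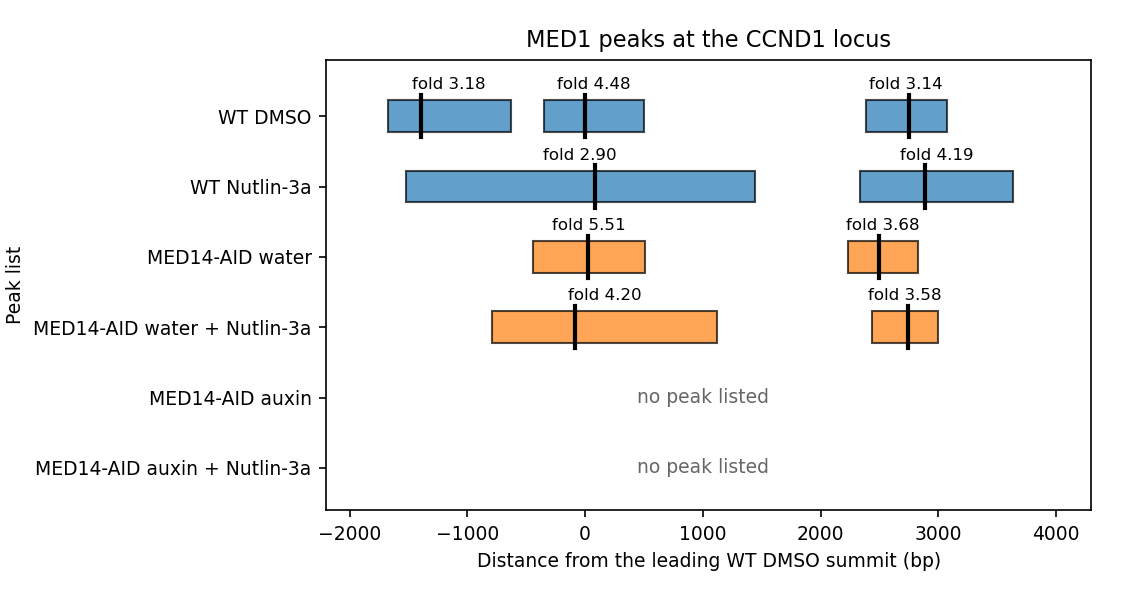
MED1 peaks at the CCND1 locus in each list (vertical axis), by distance in bp from the leading WT DMSO summit (horizontal axis). Bars are the listed peaks, blue for WT and orange for MED14-AID cells, black lines are their summits and the labels give the authors' fold, with 2 to 3 peaks in each list without auxin and none in the auxin lists.

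The leading summits of the first CCND1 region lay within 176 bp of each other over the 4 lists, and those of the second within 396 bp. Over the 288 regions listed in all 4 lists without auxin, the median of this range was 197.5 bp and its quartiles were 118.75 and 373.5 bp. The first region was thus near the median, and 76.7% of the 288 regions had a range no larger than that of the second. The summits of the pair stood between 2470 and 2834 bp apart in the 4 lists.

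Neighbouring peaks were joined into clusters at the stitching distance customary for enhancer clusters, and distances of 5 and 20 kb gave as many clusters at the loci. The CCND1 cluster held 3 peaks over 4746 bp in WT cells with DMSO, where 10.1% of 756 clusters had as many peaks or more. It held 2 peaks in each of the other 3 lists without auxin. Clusters of at least 2 peaks made up 25.3% of all in WT cells with Nutlin-3a, 30.1% with water and 32.2% after water and Nutlin-3a. By bases covered it ranked 104 of 756, 76 of 806, 94 of 292 and 61 of 329 in the 4 lists, in the order WT DMSO, WT Nutlin-3a, water, and water then Nutlin-3a. Clusters with more peaks than CCND1's numbered 38 in WT cells with DMSO and 92 with Nutlin-3a.

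The single ZNRF3 peak, chr22:29426579-29427091, was listed in WT cells with DMSO with a fold of 2.48 and a −log10 q of 3.50. Of the 1106 peaks of that list, 13.2% had a lower fold and 7.50% a lower −log10 q. No other list had a peak there. Among the 85 WT DMSO peaks with a −log10 q no higher than this one, 54 (63.5%) overlapped no peak of any other list, compared with 25.2% of the whole list.

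The single AXIN2 peak, chr17:63555736-63556284, was listed in MED14-AID cells with water with a fold of 2.99 and a −log10 q of 2.55. It was among the weakest of that list, with 4 of 463 peaks lower by −log10 q. It was 1 of 18 water peaks (3.89%) that overlapped no peak of any other list. Among the 5 water peaks with a −log10 q no higher than this one it was the only such peak (20%), and the other 4 each overlapped a peak of another list. AXIN2 and ZNRF3 thus had 1 weak peak each, in different lists, and nothing is read from this about feedback inhibitors.

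**Figure D3:**
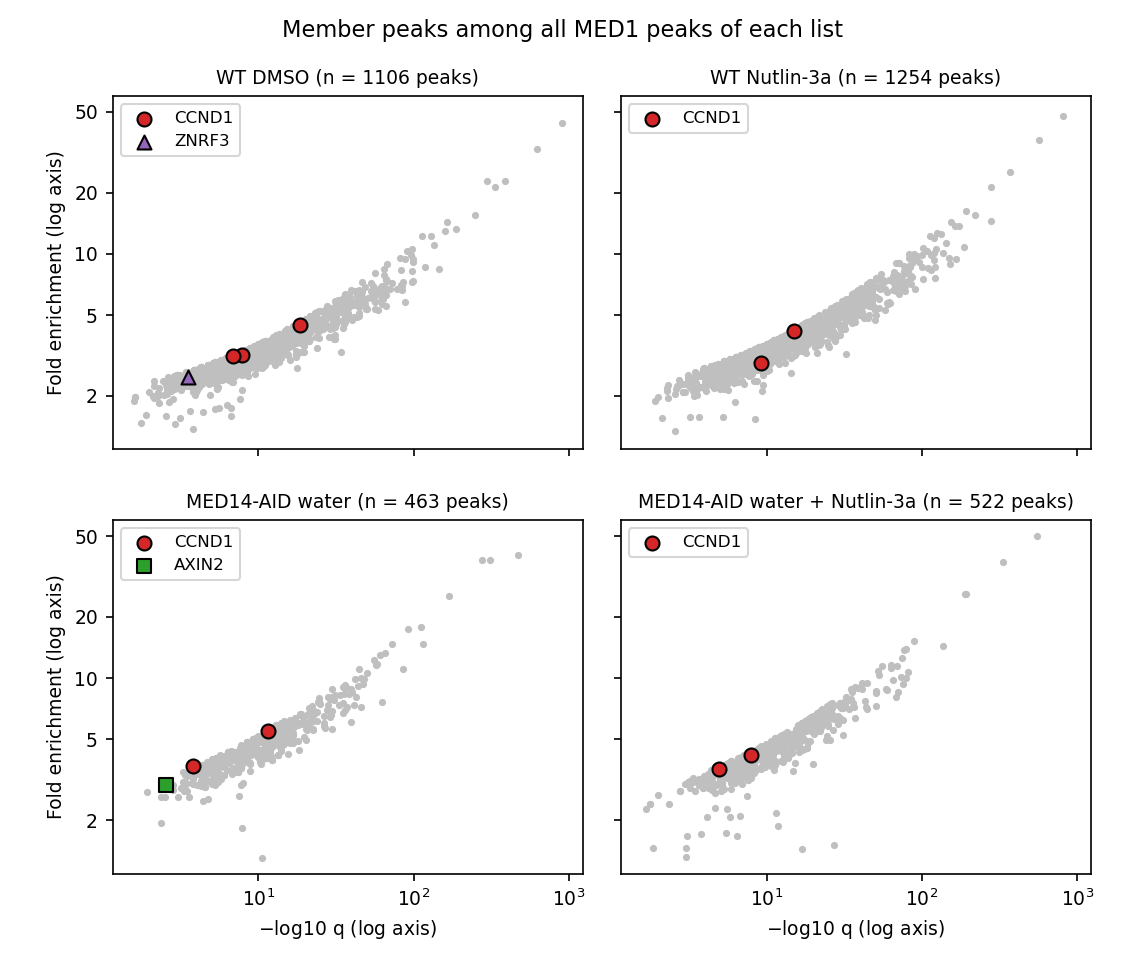
Fold enrichment (vertical, log axis) against −log10 q (horizontal, log axis) of every MED1 peak (grey points) in the 4 lists without auxin, with the peaks at CCND1 (red circles), ZNRF3 (purple triangle) and AXIN2 (green square) marked. The leading CCND1 peaks lie between folds of 4.19 and 5.51, while the ZNRF3 and AXIN2 peaks sit at the weak end at 2.48 and 2.99.

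To ask whether p53 induction went with MED1 peaks at these loci, the lists with and without Nutlin-3a were set side by side, with 1 shared base enough for an overlap. In WT cells none of the 2 Nutlin-3a peaks, both at CCND1, was absent from the DMSO list, whereas 35.0% of all 1254 Nutlin-3a peaks were. With 2 peaks the exact (Clopper-Pearson) 95% interval reaches 84.2%, so a share like that of the whole list is not told apart. In the other direction 1 of 4 DMSO peaks, the one at ZNRF3, overlapped no Nutlin-3a peak (25%, interval 0.631 to 80.6%), against 26.5% of all DMSO peaks. All 3 CCND1 peaks of the DMSO list overlapped a Nutlin-3a peak, 2 of them the same broad one. With 50% reciprocal overlap 3 of the 4 DMSO peaks (75%) had no partner, against 35.4% of all DMSO peaks under that setting, and 1 of the 2 Nutlin-3a peaks (50.0%) had none, against 43.1%. The broad Nutlin-3a peak is 2967 bp wide, and the DMSO peaks that overlap it are 1042 and 851 bp wide.

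In MED14-AID cells with water, none of the 2 peaks with Nutlin-3a was absent without it, against 31.2% of all 522 peaks. With 50% reciprocal overlap 1 of the 2 was (50.0%), against 43.3% under that setting. Of the 3 water peaks, the AXIN2 peak overlapped none in the list with Nutlin-3a, against 22.5% of all water peaks. With 1 shared base as the overlap, the member counts were thus 0 or 1 in each direction and in both lines, and counts over 2 to 4 peaks are too few under either setting to place above or below the lists as a whole.

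To see what MED14 depletion left at these loci, the water lists were set against the auxin lists. None of the 3 water peaks overlapped an auxin peak (interval 0 to 70.8%), against 9.50% of all 463 water peaks. With Nutlin-3a none of 2 did, against 9.0% of 522. Absence under auxin was the state of most peaks, and 244 of the 288 regions listed in all 4 lists without auxin (84.7%) were, like both CCND1 regions, in neither auxin list. Peaks stronger than the leading CCND1 peak were also mostly absent. Of 124 water peaks with a higher fold, 30 (24.2%) overlapped an auxin peak, and of 337 with a lower fold 13 (3.86%) did. With Nutlin-3a, 40 of 270 peaks with a higher fold (14.8%) and 7 of 251 with a lower one (2.79%) did. The auxin lists hold 53 and 66 peaks, and a peak missing from a list may still be bound below the caller's threshold.

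The lines were compared with mock treatment. Of the 4 WT DMSO peaks 2, both at CCND1, overlapped a water peak (50.0%, interval 6.76 to 93.2%), against 33.3% of all 1106. The CCND1 peak chr11:69451296-69452337 and the ZNRF3 peak did not. With Nutlin-3a both CCND1 peaks of WT cells were found in the edited line after water and Nutlin-3a (100.0%, interval 15.8 to 100.0%), against 33.2% of 1254. With 50% reciprocal overlap 1 of the 2 was (50.0%), against 24.0% of all under that setting. In reverse, 2 of 3 water peaks were in the WT DMSO list, against 85.1%, the AXIN2 peak being the exception. Both peaks listed after water and Nutlin-3a were in the WT Nutlin-3a list, against 86.8%. Line, mock treatment and number of pooled libraries differed together and cannot be told apart.

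Around the windows the distance to the nearest peak outside varied from 85.4 kb at ASCL2 to 4377 kb at SOX4, taking the closest list for each locus. For ASCL2 this was chr11:2150578-2154588 in WT cells with Nutlin-3a, with a fold of 6.41, the nearest miss of the 9 windows. For CCND1 it was chr11:69251655-69252562, 157.4 kb before the window, in WT cells with Nutlin-3a. ETS2 had its nearest peak at 435.4 kb and SOX9 at 487.4 kb, AXIN2 at 760.8 kb and ZNRF3 at 914.3 kb. At EPHB2 the nearest peak of any list lay at 1017 kb and at LEF1 at 2289.7 kb. SOX4, LEF1 and EPHB2 thus had the most distant nearest peaks of the 9 loci. How far such peaks lie from windows elsewhere was not computed. Peaks were sparse in general, with 4.76% of the 163.0 kb stretches holding one, so these distances are not called unusual. Widening each window by 50 kb on both sides added no peak at any locus.

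**Figure D4:**
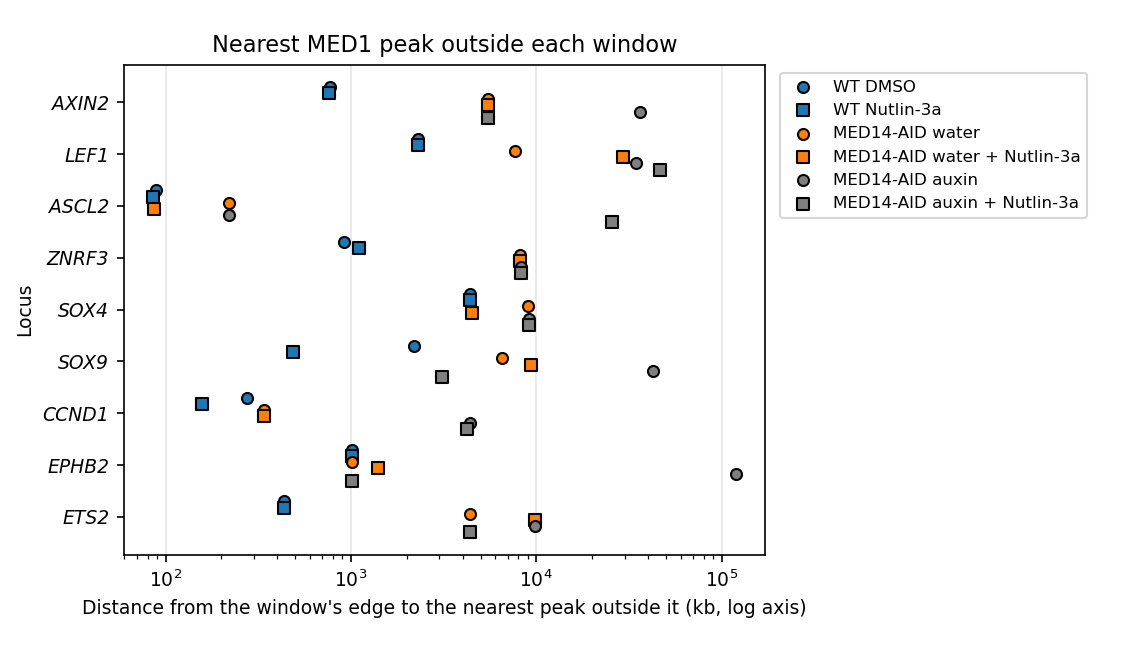
Distance in kb (log axis) from the edge of each window to the nearest MED1 peak outside it, for each locus (vertical axis) and list (symbols, blue for WT, orange for water, grey for auxin). ASCL2 and CCND1 have the closest peaks, at 85.4 and 157.4 kb, and SOX4 the farthest of the 9 when the closest list is taken.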

How the data were processed

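MED1 ChIP-seq of 16 samples (8 MED1 libraries and 8 inputs, the latter not analysed here) gave 6 narrowPeak lists. Per the submitters' processing notes, Bowtie 0.12.9, hg19 and MACS2 2.1.2 were used, and settings are not given in the sources used here. The deposited fold is the peak caller's ratio over background, and the deposited −log10 values used are those of the peak's q. The WT lists are pooled, per the peak names in the files and the labels. The lists give no read counts, so depth is unknown, and weaker binding is not seen.

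Peaks were members where they overlapped a window by at least 1 bp. Members and windows were chosen with earlier results of these data known. Per the naming rule, all 9 loci are described, with the leading peak of each list. Other Wnt pathway genes were not analysed here, because the gene table is of GRCh38. Shares have exact 95% binomial intervals, which cover counting error only. No test was made, since peaks are not replicates. Computations ran in Python 3.11.15 (pandas 2.3.3, numpy 2.4.6, scipy 1.17.1), with figures by matplotlib 3.10.9. The overlap and merging code was checked against bedtools 2.31.1 on the deposited lists, with 0 of 93 counts different. The overlap code was also run on simulated lists, which are not part of the 93. Alternatives were 50% reciprocal overlap, a 1 kb gap, −log10 q of at least 5 or 10, summits within the window, equal list lengths, wider windows and stitching at 5 or 20 kb.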

Additional observations from a re-analysis of the deposited data

How the results depend on the processing

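Of 69 values under alternative settings, 61 stayed within the interval of the share or within 1.5 times the count. The intervals over 2 to 4 peaks are so wide that this tally does not show stability. With 50% reciprocal overlap the DMSO-only share in WT cells went from 25% to 75% and still counted as within. The other 8 values follow from fewer peaks. At −log10 q of at least 10, member peaks numbered 1 in WT DMSO, 1 in WT Nutlin-3a, 1 with water and 0 after water then Nutlin-3a. Of all peaks, 518 of 1106 in WT DMSO, 713 of 1254 in WT Nutlin-3a and 217 of 463 with water passed this limit. The median −log10 q after water then Nutlin-3a was 9.84. The DMSO-only share was 0% at −log10 q of at least 10 (1 peak, against 5.98% of all) and 0% at 5 in both lists (3 peaks, against 20.9%). The share of WT DMSO peaks found with water was 100.0% under that same limit of 10, against 55.4% of all peaks past it, and 100.0% when lists had equal length, against 58.3%, each from 1 member peak. In 4 cases no member was left and no value was given. Leaving out a replicate was not run, as each WT list is pooled and each MED14-AID list is 1 library. No paired analysis was possible because the lists carry no replicate numbers. The counts of 2 to 4 peaks per list limit every share.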

Other observations

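Beyond the windows, 4 of the 9 loci had a merged MED1 region within 500 kb. How often other stretches have a region this near was not computed, so the count has no background. The regions are placed by distance alone and are not assigned to the named genes. The protein-coding gene before CCND1 is MYEOV, and the one before ASCL2 is TH (GRCh38, a different build from the peaks). Where the regions lie relative to MYEOV or TH was not determined. CCND1 had 6 such regions. The 2 before the window that begin at chr11:69061688 and chr11:69068651 were, like the CCND1 regions themselves, listed in all 4 lists without auxin and in neither auxin list. The leading peak of the former had a fold above that of 89.7% of peaks in WT DMSO, 91.6% in WT Nutlin-3a, 50.5% in water and 85.8% after water then Nutlin-3a. The 2 after the window, from chr11:69794415 and chr11:69862927, were listed in both WT lists and in no MED14-AID list. Most WT peaks had no partner in the shorter MED14-AID lists. Of all WT DMSO peaks 33.3% were found with water, and of all WT Nutlin-3a peaks 33.2% were found after water then Nutlin-3a. The other 2, from chr11:69235391 and chr11:69251655, were listed in WT cells with Nutlin-3a alone, with folds of 2.70 and 3.54. Of all WT Nutlin-3a peaks, 35.0% overlapped no WT DMSO peak. Neither pattern is therefore read as particular to these regions.

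ASCL2 had 4 regions within 500 kb, all before its window. The leading peak of the one from chr11:2150578 had a fold above that of 29.3% of peaks in WT DMSO, 91.1% in WT Nutlin-3a and 80.5% after water then Nutlin-3a, and none was listed with water alone. These standings differ between lists of different lengths, each the only list of its condition, and the difference was not tested. The one from chr11:2016509 was listed in 4 lists, among them the auxin list without Nutlin-3a, where 13.2% of peaks had a lower fold. Its leading peak stood above 97.2% of folds in WT Nutlin-3a, 75.6% in water and 90.8% after water then Nutlin-3a. It was not listed in WT DMSO or under auxin with Nutlin-3a. SOX9 and ETS2 had 1 region each, listed in WT cells with Nutlin-3a alone and in both WT lists. Given the shares over all peaks above, these patterns are not read as particular to SOX9 or ETS2. AXIN2, LEF1, ZNRF3, SOX4 and EPHB2 had none within this distance.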
